A study of Mus musculus with 45 samples.

Results

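The comparison described here set injured mouse hearts that had been through a transient overexpression of ERBB2 (OE MI) against uninjured wild-type hearts (WT sham), both taken 4 weeks after the overexpression, the time labelled T3. It measures the total distance from the healthy state, since the groups differ in both transgene and injury. It used 8 of the 45 RNA sequencing libraries of the series, all 4 labelled OE MI and all 4 labelled WT sham at T3. ERBB2, a receptor tyrosine kinase, was overexpressed in cardiomyocytes, the muscle cells of the heart. OE hearts carry the transgene and WT hearts do not; MI names the injury, ischemic per the series title, and sham its control procedure. Other groups of the same table serve as side comparisons: WT MI at T3 (4 libraries), OE sham at T3 (3 libraries), and OE MI (3 libraries) and WT sham (4 libraries) taken 2 weeks after the overexpression, at T2. RNA came from whole perfused hearts, so muscle, scar, vessel and blood-derived cells were measured together. The sources used here do not give the age of the mice, the transgene's promoter or the date of the injury relative to the overexpression. Libraries of a group carry separate numbers and no other sign of separate animals. A p-value is therefore set against the scatter between libraries only, which may be technical. That scatter was pooled over all 8 groups of the 29 libraries fitted.

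ERBB2 pairs with other ERBB receptors that bind neuregulin and signals through ERK and AKT; in adult cardiomyocytes its activation drives a return to a less mature state, with disassembly of sarcomeres and re-entry into the cell cycle. When the signal ends, the cells redifferentiate. A heart infarct is replaced by a collagen scar made by activated fibroblasts, with macrophages in attendance, while the surviving muscle typically lowers genes of fatty acid oxidation and adult ion channels.

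Of the genes in the table, 15533 entered the test, and the 8 libraries held 14199741 to 18590577 reads in genes. Erbb2 itself (chromosome 11, 98412470 to 98437716, plus strand, GRCm38) had 207, 232, 247 and 246 normalized counts in OE MI, against 174, 219, 222 and 202 in WT sham. The groups overlapped, and the log2 fold change was 0.19 ± 0.09 (SE; limma adjusted p = 0.154), so this transcript did not check the labels at T3. With library totals it was called higher, at 0.45 (limma adjusted p = 0.000678), and with totals without mitochondrially encoded reads at 0.33 (limma adjusted p = 0.00539). Heart muscle markers were abundant throughout: Myh6 ran from 227086 to 286168 in OE MI and from 332909 to 410540 in WT sham, and Actc1 from 135469 to 172141 in OE MI and from 152527 to 158483 in WT sham. The mitochondrially encoded transcripts that the table lists took 21.6% to 26.8% of the reads in OE MI, against 27.7% to 34.0% in WT sham, with no overlap.

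The OE MI libraries were not alike. Replicates 1 and 2 lay apart from 3 and 4: on the first principal component of the T3 libraries, which held 36.8% of the variance, they stood at 21.3 and 19.4, and replicates 3 and 4 at 1.02 and -0.93. Their scar transcripts were higher (Col1a1 had 3626, 3846, 1996 and 1826 normalized counts in OE MI replicates 1 to 4), and their atrial transcripts lower, Myl7, the atrial light chain, having 676, 182, 3779 and 2910.1. In WT sham Myl7 also varied, at 3073, 5954, 5340.3 and 2452. Adipoq, an adipocyte marker, had 1597, 658, 36.4 and 52.9 in OE MI, against 185, 137, 268 and 62.3 in WT sham. What these replicates share, such as the extent of the injury or the tissue sampled, was not tested. Counts without replicates 1 and 2 are given with the gene lists, and OE MI then holds 2 libraries.

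As a plain measure of distance, the root-mean-square log2 difference from the mean of 3 WT sham libraries was taken over 9979 genes with a mean of at least 100 normalized counts, averaged over the choices of 3 or, for a WT sham library, from the other 3. It was 0.436, 0.434, 0.331 and 0.355 in the OE MI libraries, 0.422, 0.311, 0.395 and 0.355 in WT MI, 0.370, 0.318 and 0.434 in OE sham, and 0.321, 0.228, 0.198 and 0.228 in the WT sham libraries against the other WT sham hearts. Every OE MI library was farther from WT sham than any WT sham library from its fellows, but OE MI replicate 3 stood close to WT sham replicate 1. The ranges of OE MI, WT MI and OE sham overlapped one another.

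**Figure D1:**
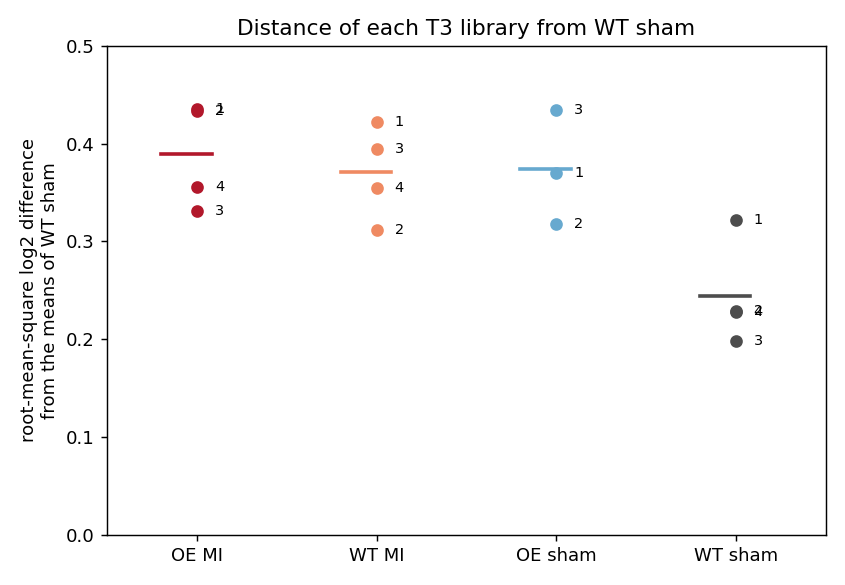
Root-mean-square log2 difference of each T3 library from means of 3 WT sham libraries (vertical axis, log2 units) over 9979 genes, by group; numbers are replicates and short lines are group means. OE MI replicates 1 and 2 stand at 0.436 and 0.434, replicates 3 and 4 at 0.331 and 0.355, and the WT sham libraries between 0.198 and 0.321.

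Against WT sham, 1193 genes rose and 1357 fell in OE MI hearts, 16.4% of the genes tested (limma on log2 of the normalized count plus 1, Benjamini-Hochberg adjusted p under 0.05). At least a 2-fold difference was reached by 303 of the genes that rose and 177 of those that fell, so most differences were modest. The libraries of the groups did not overlap for 1287 genes that were higher (8.29%) and 1588 that were lower (10.2%) in OE MI, 18.5% of genes tested. Genes named below for having the largest changes had to show no overlap, so for them it is no further result. The authors' deposited table calls 922 genes for the same pair, 590 higher and 332 lower; 915 of them were tested here, and 804 were called by both, all in the same direction. Log2 fold changes given below are OE MI over WT sham, with their standard errors, unless another pair is named.

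Directions are relative to the authors' scaling. Over all genes the median log2 fold change was 0.01 as deposited and 0.27 when the same reads were scaled by library totals, which turned the split of 1193 higher and 1357 lower into 6805 higher and 416 lower. Library totals that leave out mitochondrially encoded reads, an alternative added after the data were seen, gave a median of 0.15 with 3499 higher and 693 lower. Counts without OE MI replicate 1 were 702 higher and 936 lower, without replicate 2 they were 712 and 969, and without WT sham replicate 4 they were 743 and 1014. Without both OE MI replicates 1 and 2, 292 genes rose and 479 fell, with the OE MI group then holding 2 libraries. Of 202 called genes that the selection rule named, 107 stayed called with the same direction under every one of the 21 alternatives that tested them. The alternative with a filter at 50 tested 193 of the 202. Among the called genes described below, Col1a1, Col1a2, Cilp, Thbs4, Ltbp2, Sfrp2, Tgfbr2, Igf1, Igfbp6, Wisp2, Etv5, Erbb4, Casq1, Runx1, Acta2, Ccl8, Zbp1, Ighm and Ddc were not called without OE MI replicates 1 and 2 (limma adjusted p = 0.0551 for Ccl8 to 0.528 for Ighm). Nor were Postn, Myh6, Cpt1b and Cd68, or, in the closing sections, Arhgef17, H2-D1, Bst2, Cd44, Itgb7, Cxcl2, Gm15487, Des, Nr1d2, Rcan2 and Sptb. Called genes described below that are outside these 202 were not followed through the alternatives. Among them are Kcnd2, Cacna1c, Pln, Ppargc1a, Esrra, Pdgfra and Rgs5.

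**Figure D2:**
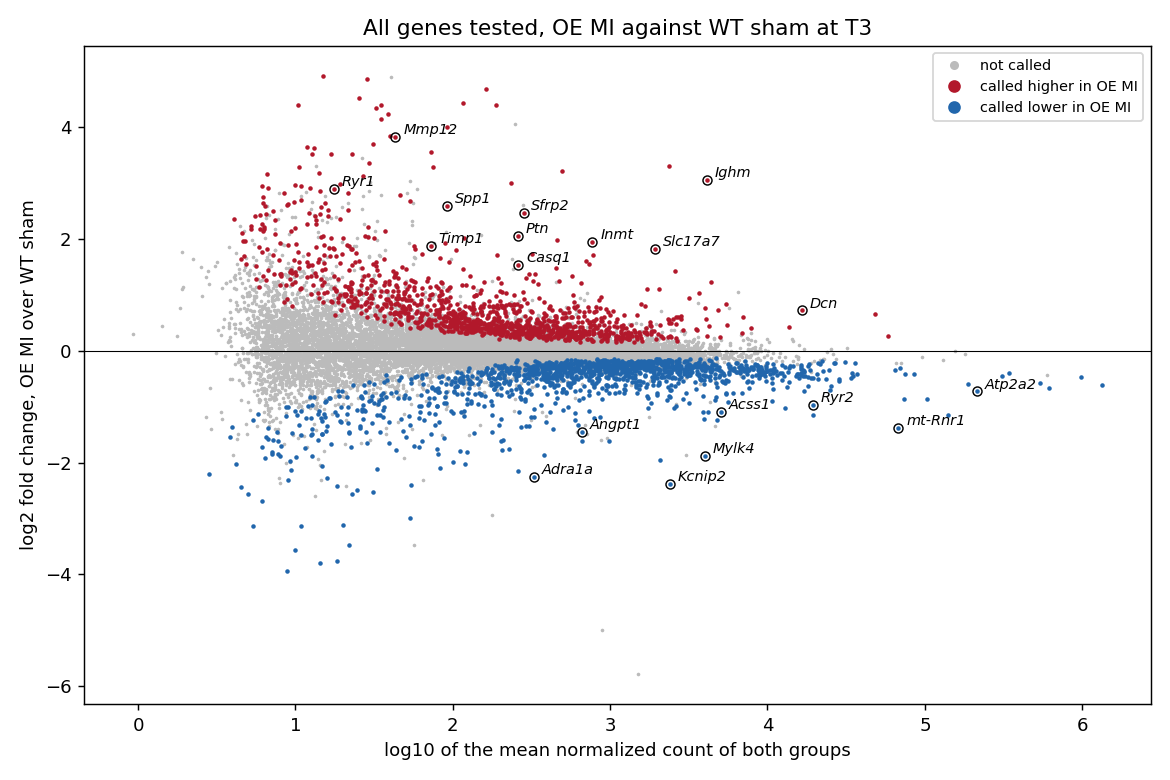
Log2 fold change of OE MI over WT sham at T3 (vertical axis) against the log10 mean normalized count of both groups (horizontal axis), 1 point for each of 15533 genes, red where called higher (1193), blue where called lower (1357), grey otherwise. Circled genes include Kcnip2 at -2.38, Inmt at 1.94 and Timp1 at 1.88.

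The 3 genes that mark this comparison each showed a different pattern over the 4 groups of T3. Inmt encodes indolethylamine N-methyltransferase, which methylates tryptamines (chromosome 6, 55170626 to 55175043, minus strand, GRCm38, protein coding). It had 1215, 1409, 1507 and 766 normalized counts in OE MI, 209.6, 321, 229 and 189 in WT MI and 219.8, 261 and 316 in OE sham, against 451, 277, 279 and 259.5 in WT sham. Every OE MI library was above every other T3 library. Its level in OE MI was 3.84 times that of WT sham (1.94 ± 0.23; limma adjusted p = 7.76e-06), and over WT MI and OE sham the log2 fold changes were 2.35 ± 0.23 and 2.17 ± 0.25 (limma adjusted p = 4.79e-06 and 1.79e-05).

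Timp1, a secreted inhibitor of matrix metalloproteinases (chromosome X, 20870166 to 20874735, plus strand, GRCm38, protein coding), was high in the injured groups. It had 128, 187, 83.8 and 65.0 normalized counts in OE MI, 232, 108, 157 and 122 in WT MI and 20.3, 22.4 and 17.9 in OE sham, against 29.7, 21.1, 30.8 and 33.7 in WT sham. Both injured groups lay above both sham groups. The rise over WT sham was 1.88 ± 0.32 (limma adjusted p = 0.000247), and the difference from WT MI was -0.46 ± 0.32 (limma adjusted p = 0.51).

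Kcnip2 encodes KChIP2, the subunit that carries Kv4 channels of the transient outward potassium current to the membrane (chromosome 19, 45791839 to 45816061, minus strand, GRCm38, protein coding). It had 806, 852, 723 and 719.5 normalized counts in OE MI, 3006, 3837, 2962 and 3552 in WT MI and 1080.1, 1166 and 623 in OE sham, against 4129, 3747, 4051 and 4234 in WT sham. All hearts with the transgene, injured or not, were below all WT hearts. In OE MI the transcript stood at 0.192 of its WT sham level (-2.38 ± 0.14; limma adjusted p = 3.99e-11); the difference from OE sham was -0.25 ± 0.15 (limma adjusted p = 0.257).

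**Figure D3:**
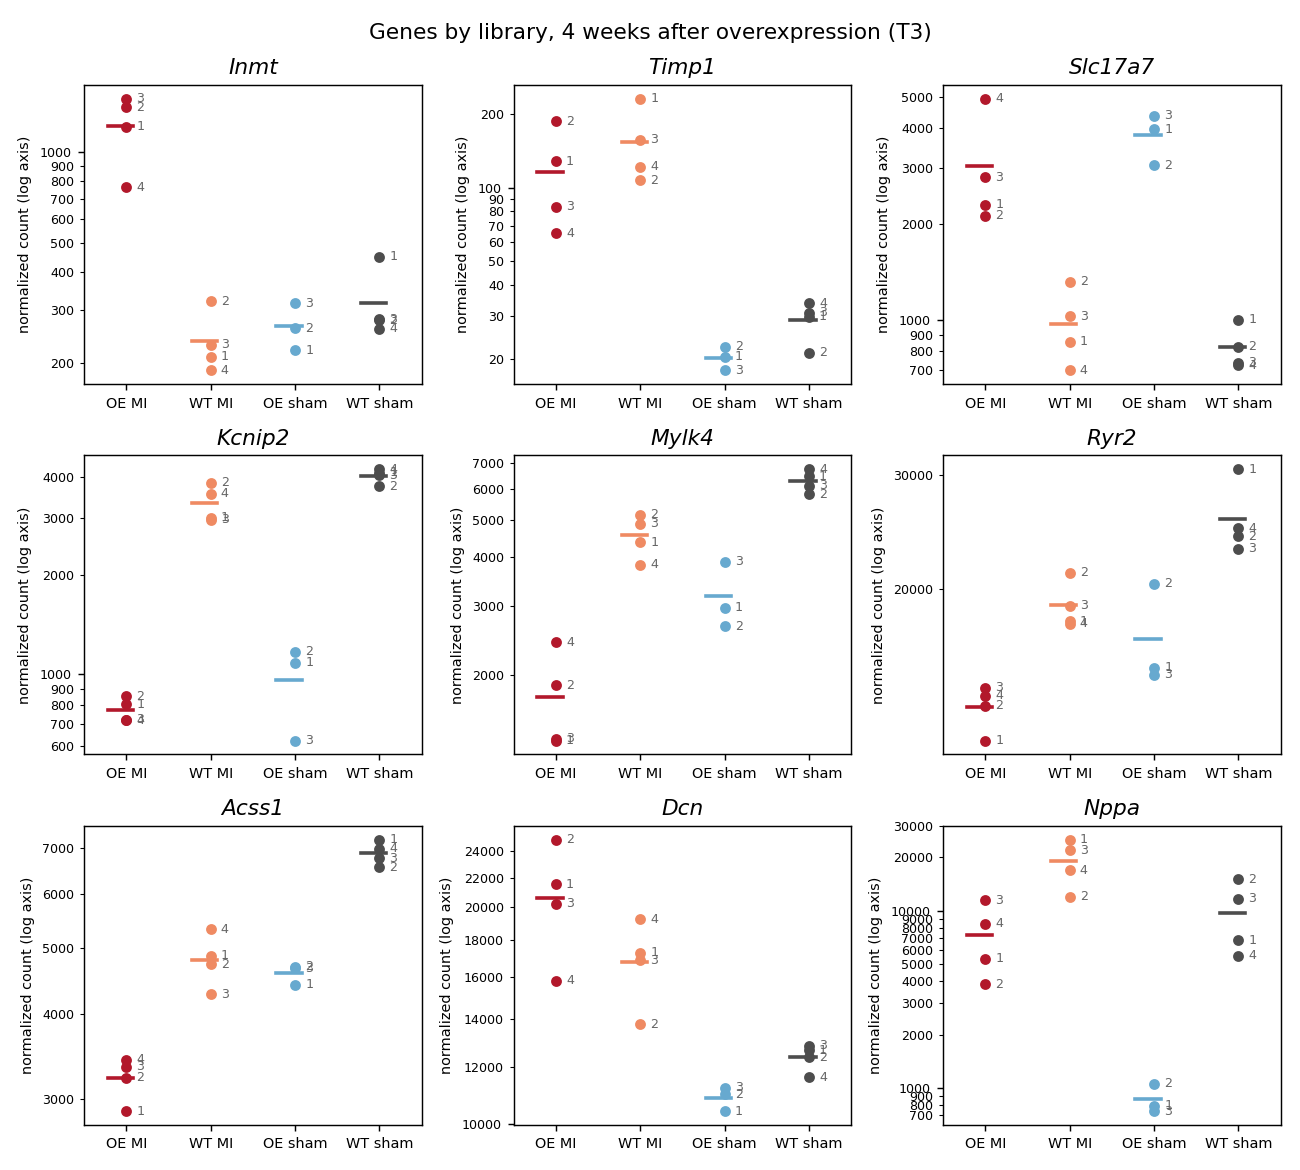
Normalized count of 9 genes (log axis, own scale in each panel) in each T3 library, by group; numbers are replicates and short lines are group means. Inmt is highest in OE MI alone, Timp1 and Dcn are higher in both injured groups than in both sham groups, and Kcnip2 is low in both OE groups.

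The 250 bases before the RefSeq start (GRCm38.p6) are shown 5′ to 3′ because these genes carry the 3 patterns; capitals mark any of 7 motifs, searched on both strands.
Inmt chr6:55174991-55175240 (minus strand): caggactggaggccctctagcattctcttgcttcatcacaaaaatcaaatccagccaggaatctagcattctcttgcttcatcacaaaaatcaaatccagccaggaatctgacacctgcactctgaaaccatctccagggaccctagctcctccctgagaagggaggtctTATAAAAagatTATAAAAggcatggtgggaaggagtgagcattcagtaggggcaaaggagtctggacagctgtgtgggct
Timp1 chrX:20869916-20870165 (plus strand): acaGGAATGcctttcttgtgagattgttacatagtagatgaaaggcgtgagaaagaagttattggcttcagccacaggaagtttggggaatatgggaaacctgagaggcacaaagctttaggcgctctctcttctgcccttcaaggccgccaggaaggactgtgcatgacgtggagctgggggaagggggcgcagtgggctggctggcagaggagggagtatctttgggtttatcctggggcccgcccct
Kcnip2 chr19:45816064-45816313 (minus strand): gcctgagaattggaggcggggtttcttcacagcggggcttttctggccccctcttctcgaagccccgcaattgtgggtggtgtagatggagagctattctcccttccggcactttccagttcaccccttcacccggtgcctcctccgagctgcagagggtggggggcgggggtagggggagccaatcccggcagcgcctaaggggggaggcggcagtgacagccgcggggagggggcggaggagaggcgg
Capitals in Inmt mark the TATA letters TATAAAA, found at -80 and -69 from the start, and those in Timp1 the TEAD letters GGAATG at -247; no searched motif was in the Kcnip2 window. The RefSeq start of Inmt lies inside the GENCODE span of the gene given above, so the last bases of its window lie within that span. Windows were matched for 10638 of the genes tested. Of these, 2.33% held TATAAAA and 10.7% held GGAATG, and the rest of the motifs were TGANTCA (AP-1, 4.44%), CTANNNNTAG (MEF2, 2.68%), AAGGTCA (an ERR half-site, 2.73%), GAAANNGAAA (interferon response, 2.76%) and CCGGAAGT (ETS, 5.74%). Among genes that rose, 3.79% of 844 windows held the interferon letters, and among those that fell 1.64% of 973 did; for the ETS letters the shares were 2.13% and 4.32%. In the same order the shares were 3.08% and 1.85% for TATAAAA and 10.9% and 12.95% for GGAATG. They were 3.91% and 4.83% for AP-1, 2.25% and 3.80% for MEF2 and 3.32% and 4.01% for the ERR half-site. All these matches describe letters in a window and were not tested as sites.

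Many genes of the scar rose. Among all genes tested 7.68% rose and 8.74% fell, the background for every list below. Of 36 collagen genes 11 rose and none fell, with a median log2 fold change of 0.38. Of 35 matricellular and proteoglycan genes 17 rose and 1 fell (median 0.39), and of 40 genes for collagen processing and elastic fibres 13 rose and 4 fell (median 0.24). The lists were chosen with earlier results of these data known.

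Col1a1, a chain of type I collagen, had 3626, 3846, 1996 and 1826 in OE MI, against 1085, 1417, 1216 and 1268 in WT sham, with no overlap (1.10 ± 0.23; limma adjusted p = 0.00211). Col1a2, the other chain, rose by 0.94 ± 0.19 (limma adjusted p = 0.00188). The lowest OE MI library was above the highest WT sham library for both, but OE MI replicates 1 and 2 were the high ones. Postn, the periostin gene of activated fibroblasts, had 3180.2, 3079, 2044 and 1300.2 in OE MI, against 1048, 1113, 1117 and 919.5 in WT sham (1.11 ± 0.27; limma adjusted p = 0.00672), and was not called without replicates 1 and 2 (limma adjusted p = 0.236) or with only the 8 libraries compared in the fit (limma adjusted p = 0.0522). Dcn, the small proteoglycan decorin that binds collagen fibrils, had 21530.2, 24865, 20220.5 and 15796 in OE MI, against 12642, 12369.7, 12839 and 11607 in WT sham (0.72 ± 0.10; limma adjusted p = 1.26e-05). It was called under every alternative. Spp1, encoding osteopontin, had 309, 139.7, 141 and 57.3 in OE MI, against 25.2, 22.3, 23.8 and 17.4 in WT sham (2.59 ± 0.49; limma adjusted p = 0.00084). Cilp and Thbs4, matrix proteins of stressed connective tissue, rose by 1.70 ± 0.43 and 1.98 ± 0.40, and Ltbp2, a latent TGF-beta binding protein relative, by 1.73 ± 0.42 (limma adjusted p = 0.00935, 0.00174 and 0.00676).

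The fibroblast list had 11 of 37 members higher and 2 lower, while its summed level was 51640.2 to 57618 in OE MI, against 51813 to 57187 in WT sham, overlapping. Pdgfra, a marker of resident fibroblasts, rose by 0.30 ± 0.10 and the fibroblast factor Tcf21 was at -0.14 ± 0.15 (limma adjusted p = 0.0309 and 0.554). Runx2, better known from bone, rose by 1.44 ± 0.24, and the activated-fibroblast gene Lrrc15 fell (-1.06 ± 0.18; limma adjusted p = 0.000159 and 0.000238). In whole-heart RNA, more cells of a type and more RNA per cell cannot be told apart.

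Matrix turnover genes were also among those that rose. Of 35 metalloproteinases and inhibitors 8 rose and 1 fell. Besides Timp1 these included Timp2 (0.57 ± 0.10), the membrane-bound collagenase Mmp14 (0.93 ± 0.17) and the macrophage elastase Mmp12, which had 177, 37.7, 51.0 and 59.5 in OE MI, against 10.3, 2.35, 5.95 and 1.02 in WT sham (3.83 ± 0.67; limma adjusted p = 0.000154, 0.000501 and 0.000375). OE MI replicate 1 was the high library for Mmp12.

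The collagen, matricellular, processing and fibroblast counts were lower without OE MI replicates 1 and 2. Collagens called higher numbered 5 without replicate 1, 5 without replicate 2, 7 without WT sham replicate 4 and 0 without both OE MI replicates 1 and 2, at a median of 0.25. In the same order, for the matricellular list the counts were 11, 12, 13 and 4, for collagen processing 8, 8, 10 and 1, for fibroblasts 8, 7, 8 and 1, and for metalloproteinases and their inhibitors 7, 7, 6 and 5, against 8 as reported. With library totals 20 collagens, 25 matricellular, 28 processing, 24 fibroblast and 17 metalloproteinase genes rose.

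Among secreted signals, Ptn, the heparin-binding growth factor pleiotrophin, had 632, 561, 359.9 and 156 in OE MI, against 74.3, 99.7, 98.2 and 87.9 in WT sham (2.06 ± 0.31; limma adjusted p = 8.33e-05). Sfrp2, a secreted WNT antagonist, had 846, 672, 269.7 and 169.7 in OE MI, against 54.9, 75.1, 101 and 65.4 in WT sham (2.46 ± 0.50; limma adjusted p = 0.00179). OE MI replicates 1 and 2 had the high values of both. Of 13 WNT antagonists and WISP genes 5 rose and 2 fell, with 3 higher without OE MI replicate 1, 1 lower without OE MI replicate 2, 3 or 4 or WT sham replicate 2, 3 or 4, and 7 higher and 1 lower with library totals; Sfrp4 and Wisp2 rose by 2.21 ± 0.43 and 1.71 ± 0.45 (limma adjusted p = 0.00084 and 0.0113). Wisp2 was not called without OE MI replicate 1 (limma adjusted p = 0.0512). Of the WNT antagonists and WISP genes, 2 rose and 1 fell without OE MI replicates 1 and 2.

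Of 45 genes of TGF-beta signalling 8 rose and 1 fell. The type II receptor gene Tgfbr2 rose by 0.47 ± 0.09, the signal transducer Smad3 by 0.39 ± 0.09 and the activin antagonist Fstl3 by 1.02 ± 0.19 (limma adjusted p = 0.000503, 0.00336 and 0.000521). Library totals called 21 of the list higher, and 3 rose and 1 fell without OE MI replicates 1 and 2. Of 15 insulin-like growth factor genes 4 rose and none fell, among them Igf1 (0.86 ± 0.18) and the binding protein gene Igfbp6 (0.76 ± 0.18; limma adjusted p = 0.00226 and 0.00496, the second 0.067 with only the 8 libraries compared). The number that rose was 2 without OE MI replicate 1, 0 without replicates 1 and 2, and 5 with library totals.

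Among the ERBB receptors and ligands 3 of 15 rose and 2 fell, with 1 lower without OE MI replicate 1 or 2 or WT sham replicate 1 or 2. Nrg1, the neuregulin that binds ERBB3 and ERBB4, had 33.7, 27.4, 23.7 and 26.4 in OE MI, against 10.3, 7.04, 4.96 and 10.2 in WT sham (1.70 ± 0.30; limma adjusted p = 0.000295). The receptor gene Erbb4 had 166, 176, 195 and 218 in OE MI, against 245, 308, 312 and 241 in WT sham (-0.54 ± 0.15; limma adjusted p = 0.0115), and Lrig1, whose product removes ERBB receptors, rose by 0.33 ± 0.07 (limma adjusted p = 0.0018). Library totals called 10 higher and 1 lower and ended the call of Erbb4. The list had 3 higher and 1 lower without OE MI replicates 1 and 2. Of 31 ERK feedback genes and targets 6 rose, Egr2 with 1.62 ± 0.32 and Etv5 with 0.70 ± 0.18 (limma adjusted p = 0.00084 and 0.00839), and 1 fell. The number that rose was 3 without OE MI replicate 1, 2 without replicate 2, 1 without both and 10 without replicate 4. It was 2 without WT sham replicate 3 and 16 with library totals.

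**Figure D4:**
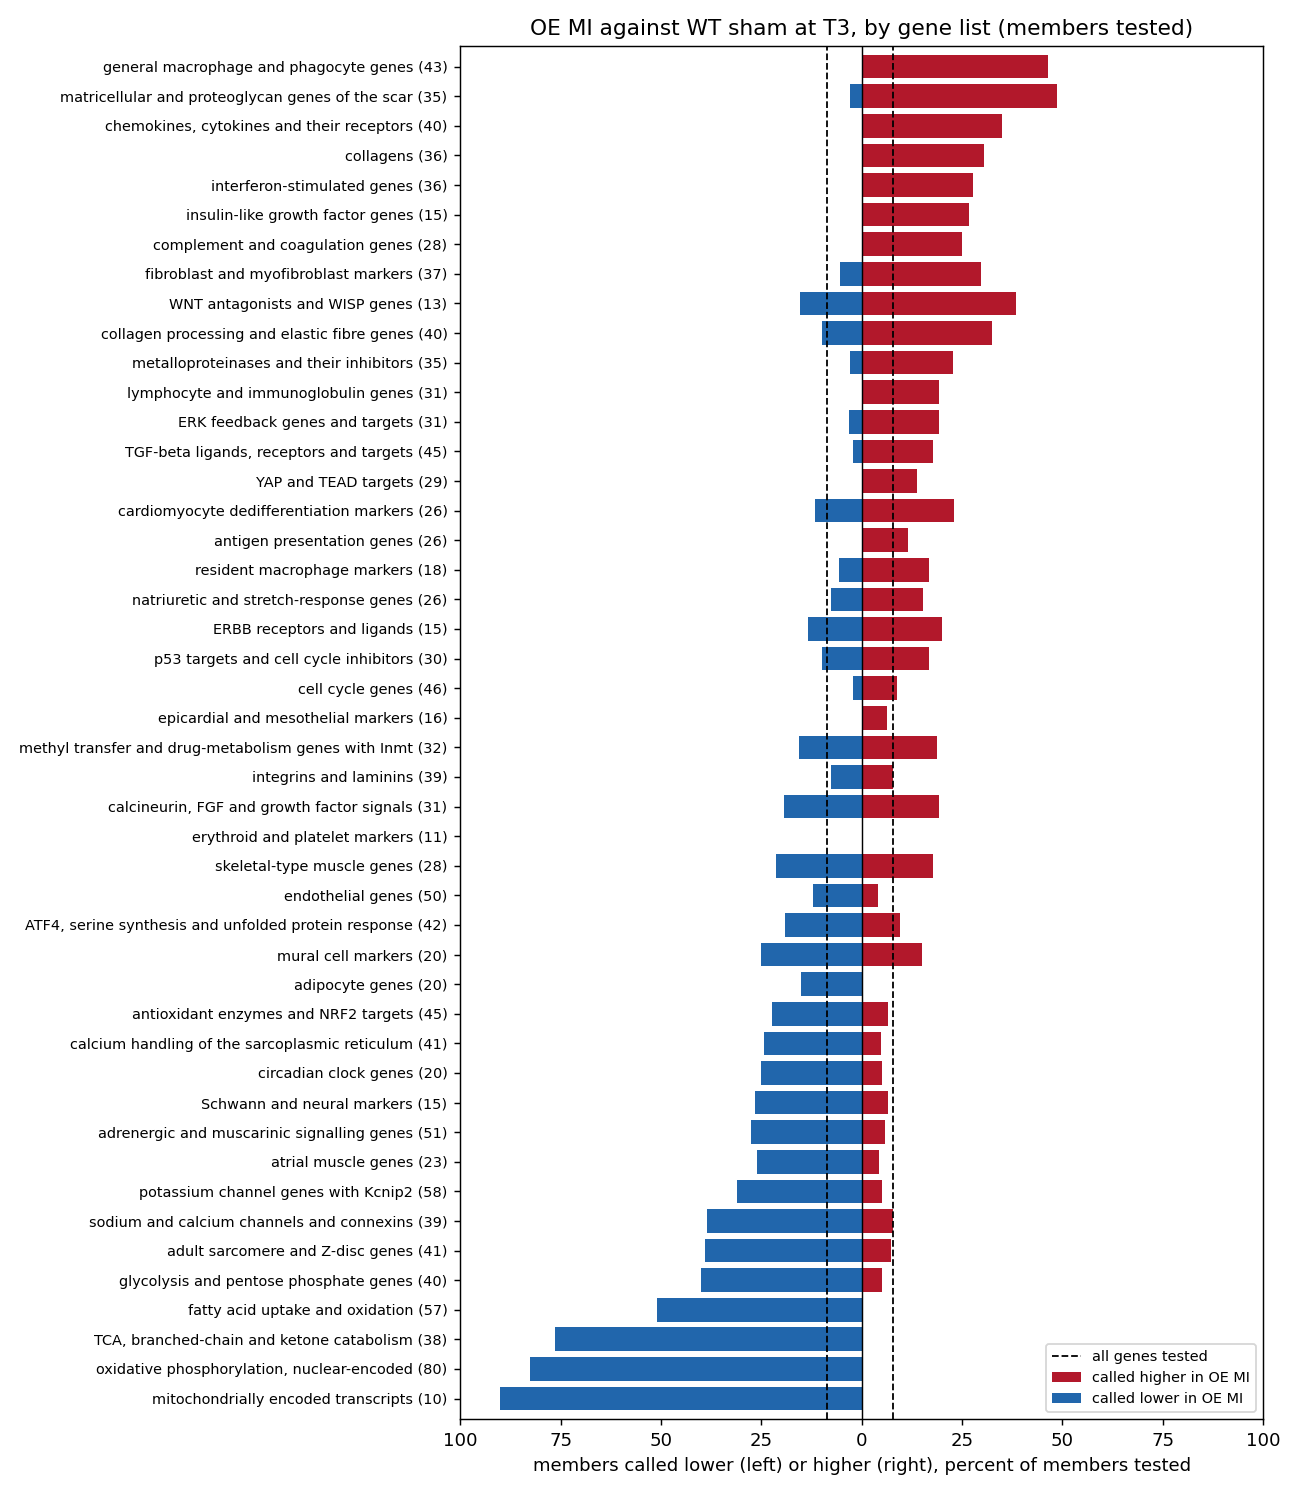
Share of tested members of each gene list that were called higher (red, right) or lower (blue, left) in OE MI against WT sham at T3, in percent; the number tested is in brackets and dashed lines give the shares of all genes, 7.68% higher and 8.74% lower. Lists of the scar and of macrophages lie toward the top and those of mitochondrial metabolism at the bottom.

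More genes of electrical activity fell than rose. Of 58 potassium channel genes 18 fell and 3 rose (median -0.26), and of 39 genes for sodium and calcium channels, connexins and desmosomes 15 fell and 3 rose (median -0.36). Beside Kcnip2, Kcnd2, a pore subunit of the same outward current, had 199, 263, 239 and 289 in OE MI, against 515, 468, 448 and 506 in WT sham (-0.98 ± 0.21; limma adjusted p = 0.00282). Cacna1c, the L-type calcium channel, had 4056, 4268, 4365 and 3835 in OE MI, against 6004, 6101, 5031 and 5891 in WT sham (-0.48 ± 0.09; limma adjusted p = 0.000732). All OE MI values of both genes lay below all WT sham values. Gja1, encoding the ventricular gap junction protein connexin 43, had 3663, 3938, 3533 and 2480.4 in OE MI, against 5479, 6766, 5815 and 5824 in WT sham (-0.83 ± 0.13; limma adjusted p = 0.000118). The desmosome genes Pkp2, Dsg2 and Dsp fell (-0.65 ± 0.07, -0.84 ± 0.13 and -0.47 ± 0.08; limma adjusted p = 8.39e-07, 9.87e-05 and 0.000104). Abcc9, the regulatory subunit of ATP-sensitive potassium channels, fell as well (-0.76 ± 0.10; limma adjusted p = 1.31e-05). With library totals 12 potassium channel genes fell and 13 rose, and 10 of the other channel list fell and 11 rose, but Kcnip2, Gja1, Pkp2, Dsg2, Dsp and Abcc9 kept their calls under all 21 alternatives. Just 1 potassium channel gene rose without WT sham replicate 3. Leaving out OE MI replicates 1 and 2, 7 potassium channel genes fell and 2 rose, and 8 of the other channel list fell and 2 rose.

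Adrenergic signalling genes were also lower in part. Adra1a, the alpha-1A adrenergic receptor, had 115, 129, 61.0 and 134 in OE MI, against 784, 403, 309 and 671 in WT sham (-2.26 ± 0.28; limma adjusted p = 9.05e-06). The highest OE MI library held 134 and the lowest WT sham library 309, but no overlap was a condition of this gene being named. Of 51 adrenergic and muscarinic genes 14 fell and 3 rose, Rgs2, which limits Gq signalling, with -0.74 ± 0.15 (limma adjusted p = 0.00141). The number that fell was 9 without WT sham replicate 3, and the number that rose was 1 without OE MI replicate 2 or WT sham replicate 4. By library totals 2 fell and 19 rose, and without OE MI replicates 1 and 2, 6 fell and 2 rose.

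Several calcium cycling and contraction genes fell. Of 41 genes of sarcoplasmic reticulum calcium handling 10 fell and 2 rose. Ryr2, the calcium release channel, had 11620.0, 13177, 14035 and 13639 in OE MI, against 30631, 24108, 23052 and 24811 in WT sham (-0.96 ± 0.11; limma adjusted p = 9.42e-07). Atp2a2, the SERCA2 calcium pump, had 143067, 159388, 170672 and 175487 in OE MI, against 279350.4, 264077, 249119 and 278174 in WT sham (-0.73 ± 0.09; limma adjusted p = 7.76e-06), and its inhibitor Pln 27469.9, 28824, 29254 and 28140.1 in OE MI, against 38211, 37605, 40951 and 42299 in WT sham (-0.48 ± 0.09; limma adjusted p = 0.000291). These 3 transcripts did not overlap between the groups, whereas the calcium store protein Casq2 was at 0.09 ± 0.08 (limma adjusted p = 0.475). Jph2, which ties the reticulum to the cell membrane, fell (-0.54 ± 0.07; limma adjusted p = 4.54e-06). With library totals 6 of the list fell and 17 rose, and 4 rose without WT sham replicate 2. The counts were 6 lower and 1 higher without OE MI replicates 1 and 2.

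Of 41 sarcomere and Z-disc genes 16 fell and 3 rose (median -0.22). Mylk4, a heart-enriched myosin light chain kinase relative, had 1355, 1878, 1369 and 2423 in OE MI, against 6461, 5811, 6115 and 6741 in WT sham (-1.88 ± 0.15; limma adjusted p = 1.51e-08). For Mylk4 too, no overlap was a condition of being named. Tpm1, the main heart tropomyosin, had 71659, 78411, 78349 and 64554 in OE MI, against 123198, 130523, 137560.3 and 140277 in WT sham (-0.86 ± 0.08; limma adjusted p = 8.78e-08), and Fhod3, a formin of the sarcomere, fell (-0.57 ± 0.07; limma adjusted p = 6.85e-06). Myh6, the adult myosin heavy chain, had 227086, 259355, 286168 and 274699.7 in OE MI, against 332909, 410539.9, 359319 and 336962 in WT sham (-0.46 ± 0.11; limma adjusted p = 0.00331). Myh6 was not called with library totals or without OE MI replicates 1 and 2 (limma adjusted p = 0.0909 and 0.104). Tnnt2 and Actc1 were at -0.16 ± 0.10 and -0.00 ± 0.09 (limma adjusted p = 0.313 and 0.988). Library totals called 8 of the list lower and 9 higher, and without OE MI replicates 1 and 2 the counts were 8 and 2.

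Some genes of membranes and muscle rose. Slc17a7, a vesicular glutamate transporter, had 2297, 2121, 2808 and 4949.7 in OE MI, against 1004, 824, 734 and 723 in WT sham (1.82 ± 0.20; limma adjusted p = 2.82e-06). Casq1, the skeletal calsequestrin, had 425, 533, 298 and 309.6 in OE MI, against 141, 150.1, 99.2 and 137 in WT sham (1.54 ± 0.31; limma adjusted p = 0.00162), and Ryr1, the skeletal calcium release channel, 14.6, 36.8, 30.1 and 44.1 in OE MI, against 5.72, 2.35, 0.99 and 5.11 in WT sham (2.89 ± 0.47; limma adjusted p = 0.000106). OE MI was above WT sham in every library for Ryr1, and for Slc17a7 and Casq1 this was a condition of being named. Markers of skeletal muscle fibres stayed low, Mylpf at 10.9, 8.57, 9.11 and 9.92 in OE MI, against 10.3, 4.69, 17.9 and 16.4 in WT sham, and Myh4 at most at 3.64 in OE MI and 8.21 in WT sham. Of 28 skeletal-type genes 5 rose and 6 fell, Ckm, the muscle creatine kinase, being lower (-0.64 ± 0.08; limma adjusted p = 6.46e-06). With library totals 11 rose and 4 fell, and without OE MI replicates 1 and 2 the counts were 3 and 2. Without OE MI replicate 2 or WT sham replicate 4, 3 rose. Hspb7, a small heat shock protein of heart muscle, had 53593, 64297, 62675 and 56439 in OE MI, against 37717, 33797, 38606 and 39379.8 in WT sham (0.66 ± 0.09; limma adjusted p = 1.51e-05).

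Mitochondrial energy genes fell as groups of many members. Of 80 nuclear genes of oxidative phosphorylation 66 fell and none rose (median -0.34). Sdhb, a succinate dehydrogenase subunit, had 9501, 10136, 10647 and 10167 in OE MI, against 14028, 13825, 15374 and 15264 in WT sham (-0.53 ± 0.08; limma adjusted p = 3.15e-05). The differences were small but the groups did not overlap. Of 38 genes of the TCA cycle and of branched-chain and ketone catabolism 29 fell and none rose (median -0.34). Oxct1, which activates ketone bodies, had 13362, 14259, 14558 and 14895 in OE MI, against 22728, 20623, 22307 and 22298 in WT sham (-0.62 ± 0.06; limma adjusted p = 2.89e-07), and Cs, citrate synthase, fell (-0.51 ± 0.07; limma adjusted p = 2.63e-05).

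Fatty acid genes showed the same direction, 29 of 57 falling and none rising (median -0.41). Acss1, the mitochondrial acetyl-CoA synthetase, had 2881, 3223, 3350.0 and 3428 in OE MI, against 7207, 6564, 6768 and 6985 in WT sham (-1.10 ± 0.08; limma adjusted p = 1.19e-09). Lpl, which frees fatty acids from circulating fat, had 49873, 51390.1, 50202 and 56628 in OE MI, against 92218, 96280.1, 90144 and 99623 in WT sham (-0.86 ± 0.08; limma adjusted p = 8.63e-08), and Hadha, of the trifunctional protein of beta-oxidation, 17400.4, 19183, 19493 and 20407 in OE MI, against 30925, 31326, 29518 and 32705 in WT sham (-0.70 ± 0.09; limma adjusted p = 6.74e-06). All 3 were lower in every OE MI library. The regulators Ppargc1a and Esrra, which drive mitochondrial genes, fell (-0.76 ± 0.12 and -0.37 ± 0.08; limma adjusted p = 8.99e-05 and 0.0012), as did Cpt1b, the mitochondrial carnitine palmitoyltransferase of muscle (-0.36 ± 0.09; limma adjusted p = 0.00913). Cpt1b was not called with library totals, with totals without mitochondrially encoded reads or without OE MI replicates 1 and 2 (limma adjusted p = 0.36, 0.0628 and 0.256).

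Glycolysis was mixed within a lower tendency. Of 40 genes 16 fell and 2 rose, and 9 fell without OE MI replicate 1. The counts were 8 lower and 1 higher without OE MI replicates 1 and 2. Pfkfb1, a regulator of phosphofructokinase, had 119, 82.2, 88.4 and 90.4 in OE MI, against 341, 410.5, 443 and 503 in WT sham (-2.15 ± 0.31), and Pygb, a glycogen phosphorylase, 8194, 9388, 9214 and 7540.2 in OE MI, against 16730.2, 18499, 16273 and 17843 in WT sham (-1.02 ± 0.08; limma adjusted p = 5.78e-05 and 1.26e-09). Hexokinase 2 (Hk2) fell (-0.60 ± 0.06), whereas Pfkp, the platelet-type phosphofructokinase, had 1196, 1373, 1194 and 1148 in OE MI, against 741, 798, 805 and 786 in WT sham (0.65 ± 0.07; limma adjusted p = 4.9e-07 and 1.14e-06). No library of one group crossed into the other for Pygb, Hk2 and Pfkp, and for Pfkfb1 this was a condition of being named.

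Mitochondrially encoded transcripts were lower too, 9 of 10 falling (median -0.61), mt-Co1 with 1059633, 1092448, 972296 and 1093088 in OE MI, against 1812715, 1412482, 1630289.7 and 1617399 in WT sham (-0.61 ± 0.10; limma adjusted p = 0.00015). The 10 include the ribosomal RNAs mt-Rnr1 and mt-Rnr2, while mt-Nd4l, mt-Co2, mt-Co3, mt-Atp6 and mt-Atp8 were not found among the genes listed. The metabolic counts depended on the scaling. With library totals 6 oxidative phosphorylation genes fell and 1 rose (median -0.08). The counts were 13 and 4 of the TCA list, 16 and 10 of the fatty acid list and 7 and 15 of glycolysis. Of the 10 mitochondrially encoded transcripts 6 fell and 0 rose. With totals that leave out mitochondrially encoded reads the oxidative phosphorylation counts were 42 lower and 1 higher. Without OE MI replicates 1 and 2, 19 of that list, 18 of the TCA list and 13 of the fatty acid list fell. So did 8 mitochondrially encoded transcripts. Sdhb, Oxct1, Cs, Acss1, Lpl, Hadha, Pygb, Hk2, Pfkp, Pfkfb1 and mt-Co1 kept their calls under all alternatives.

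The classical stress genes were not called. Nppa, the atrial natriuretic peptide, had 5347, 3839, 11472 and 8457 in OE MI, against 6805, 15024, 11678 and 5566 in WT sham (-0.43 ± 0.41; limma adjusted p = 0.516), and Nppb, the B-type peptide, 1825, 1965, 1669 and 1827 in OE MI, against 1197, 1892, 2207 and 1125 in WT sham (0.24 ± 0.46; limma adjusted p = 0.78). Myh7, the fetal myosin heavy chain, had 4776, 4518, 9762 and 8870.2 in OE MI, against 2631, 14257, 12478 and 2926 in WT sham (0.11 ± 0.61; limma adjusted p = 0.933). The libraries overlapped widely for all 3, and in WT sham replicates 2 and 3 were the high libraries for each. The atrial genes Myl4 and Sln varied alike, Myl4 with 1360.2, 419, 5915 and 6238 in OE MI, against 4870.4, 8277, 7074 and 3159 in WT sham (-1.35 ± 0.63) and Sln at -1.57 ± 0.69 (limma adjusted p = 0.156 and 0.128); the part of atrial tissue in these values was not tested. Of 23 atrial muscle genes 1 rose and 6 fell (median -0.46), with 11 lower without OE MI replicate 4, 1 lower without OE MI replicates 1 and 2, and 4 higher and 5 lower with library totals. Acta1, the skeletal actin, and Ankrd1, a stretch-response gene, were at 0.86 ± 0.55 and 0.21 ± 0.24 (limma adjusted p = 0.319 and 0.607). Of 26 natriuretic and stretch-response genes 4 rose and 2 fell. None fell without OE MI replicate 1, and 1 rose without OE MI replicate 2. Without both, 1 rose and none fell. Without WT sham replicate 2 or 4, 2 rose, and without OE MI replicate 4, 5 fell. With library totals 9 rose and 0 fell. In the dedifferentiation list, 6 of 26 rose and 3 fell: Runx1, a transcription factor induced in injured heart muscle, had 120.2, 90.8, 72.9 and 44.1 in OE MI, against 42.3, 37.5, 33.7 and 20.4 in WT sham (1.22 ± 0.29), while Acta2, smooth muscle actin, had 1322, 1569, 2414 and 1494 in OE MI, against 3616, 2911, 4503 and 2682 in WT sham (-1.02 ± 0.23; limma adjusted p = 0.00499 and 0.00339). Those counts were 2 and 2 without OE MI replicate 1, and 3 and 2 without replicate 2. Without both they were 1 and 0, and without OE MI replicate 4 they were 7 and 6. They were 4 and 3 without WT sham replicate 3, 3 and 3 without WT sham replicate 4, and 10 and 1 with library totals.

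A share of the inflammatory genes rose. Of 43 macrophage and phagocyte genes 20 rose and none fell (median 0.63), with the list's summed level at 41579 to 50628 in OE MI, against 37022 to 41383 in WT sham. Gpnmb, a gene of lipid-laden macrophages, had 173, 151, 173 and 71.6 in OE MI, against 68.6, 37.5, 53.6 and 27.6 in WT sham (1.58 ± 0.27), and Ctsz, a lysosomal protease, 899, 945, 748 and 774 in OE MI, against 497, 471, 595 and 505 in WT sham (0.70 ± 0.11; limma adjusted p = 0.000192 and 0.00012). These did not overlap, but Cd68 had 261, 286, 169 and 235 in OE MI, against 204, 137, 151 and 186 in WT sham (0.48 ± 0.17; limma adjusted p = 0.0476) and was called in 10 of 21 alternatives. The receptor Csf1r, carried by nearly all macrophages, was at 0.08 ± 0.13, and Timd4, of resident macrophages, at -0.45 ± 0.27 (limma adjusted p = 0.754 and 0.278). Of 18 resident macrophage markers 3 rose and 1 fell (median 0.13), with 2 higher without OE MI replicate 1 or 2 or WT sham replicate 2, 3 or 4, none lower without OE MI replicate 1 or 3 or WT sham replicate 1 or 2, none called without both OE MI replicates 1 and 2, and 9 higher and none lower with library totals. The macrophage count was 10 without OE MI replicate 1, 11 without replicate 2, 12 without WT sham replicate 2, 11 without WT sham replicate 4, 3 without OE MI replicates 1 and 2 and 38 with library totals.

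Of 40 chemokine and cytokine genes 14 rose and none fell; Ccl8, a chemokine for monocytes, had 92.9, 120.0, 45.5 and 115 in OE MI, against 25.2, 9.38, 9.92 and 11.2 in WT sham (2.68 ± 0.56), and Tnfrsf12a, the receptor for TWEAK, 918, 920.2, 867 and 951 in OE MI, against 335, 422, 438 and 387 in WT sham (1.21 ± 0.25; limma adjusted p = 0.0021 and 0.00215). The count was 8 without OE MI replicate 1, 9 without WT sham replicate 4, 3 without OE MI replicates 1 and 2 and 27 with library totals. Of 28 complement and coagulation genes 7 rose and none fell. The count was 4 without OE MI replicate 1, 4 without replicate 2, 2 without both, 11 without replicate 3 and 14 with library totals.

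The count of interferon-stimulated genes hung on single libraries: 10 of 36 rose and none fell. The number that rose was 2 without OE MI replicate 1, 1 without replicate 2, 0 without both and 22 without replicate 4. It was 5 without WT sham replicate 2, 1 without WT sham replicate 4 and 31 with library totals. Zbp1, a sensor of nucleic acids, had 74.7, 56.5, 28.2 and 43.0 in OE MI, against 21.7, 8.21, 12.9 and 6.13 in WT sham (2.02 ± 0.54; limma adjusted p = 0.012, and 0.0507 without WT sham replicate 4). Immunoglobulin transcripts were uneven in the same way: Ighm had 6378, 21558, 547 and 2011 in OE MI, against 1496, 552, 206 and 184 in WT sham (3.06 ± 0.95; limma adjusted p = 0.0313). It was not called without OE MI replicate 1 or 2 or WT sham replicate 3 or 4, with only the 8 libraries compared or with only the T3 libraries (limma adjusted p = 0.0897 to 0.2). OE MI replicates 1 and 2 were the high libraries, and WT sham replicates 1 and 2 were above OE MI replicate 3. Of 31 lymphocyte genes 6 rose and none fell, with 0 without OE MI replicate 1, 3 without replicate 2, 0 without both and 10 without replicate 4. The count was 1 without WT sham replicate 3, 1 without WT sham replicate 4 and 15 with library totals. Cd3e, of T cells, had 91.95, 10.3, 4.56 and 4.41 in OE MI, against 6.86, 16.4, 4.96 and 0 in WT sham, OE MI replicate 1 alone being high.

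The distance from WT sham was set beside that of the other groups by testing OE MI against them directly; these comparisons share the OE MI libraries. Counts of these comparisons, and of the test between T3 and T2 below, were not examined without OE MI replicates 1 and 2. Against WT MI, 186 genes rose and 324 fell in OE MI, 3.28% of genes tested, with 16 and 65 at 2-fold or more. Kcnip2, Adra1a, Mylk4, Angpt1, Gja1 and Acta2 were lower in OE MI than in WT MI, at -2.10, -1.60, -1.41, -1.48, -0.83 and -1.01 (limma adjusted p = 1.36e-09, 0.00168, 6.74e-06, 0.00177, 0.000559 and 0.0134). Ankrd1 was lower as well (-0.98 ± 0.24; limma adjusted p = 0.0234), and Nppa stood at -1.45 ± 0.41 (limma adjusted p = 0.0516). Higher were Inmt, Slc17a7, Casq1 and Hspb7, at 2.35, 1.60, 1.31 and 0.51 (limma adjusted p = 4.79e-06, 6.83e-05, 0.0191 and 0.00163), and Dpy19l2, with 56.5, 48.8, 51.0 and 65.0 in OE MI, against 2.78, 3.02, 0.94 and 3.90 in WT MI. Of the scar lists 3 of 36 collagens, 1 of 35 matricellular genes and 3 of 40 processing genes were lower in OE MI and none was higher, beside 2.09% of all genes lower and 1.2% higher. Timp1, Col1a1, Postn and Dcn were not called, at -0.46, -0.44, -0.57 and 0.29 (limma adjusted p = 0.51, 0.35, 0.284 and 0.11).

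Against OE sham, 1722 genes rose and 1241 fell in OE MI, 19.1% of genes tested, with 697 and 51 at 2-fold or more. Of the macrophage list 36 of 43 rose, of the interferon-stimulated list 31 of 36, of the matricellular list 24 of 35 and of the collagens 14 of 36, beside 11.1% of all genes higher and 7.99% lower; none of the members of these 4 lists fell. Nppa had 5347, 3839, 11472 and 8457 in OE MI, against 791, 1055 and 738 in OE sham (2.97 ± 0.44; limma adjusted p = 0.00026), so the OE sham hearts were lower than all other T3 hearts for this gene. Of the atrial list 12 of 23 were lower in OE sham than in WT sham and none was higher (median -0.89); the part of atrial tissue in the Nppa values was not tested. Kcnip2, Adra1a, Slc17a7, Casq1 and Dpy19l2 were not called between the OE groups, at -0.25, -0.76, -0.39, -0.43 and -0.67 (limma adjusted p = 0.257, 0.0764, 0.217, 0.396 and 0.162). Mylk4, Acss1 and Ryr2 were lower in OE MI than in OE sham as well as in WT MI, at -0.88, -0.51 and -0.34 against OE sham and -1.41, -0.57 and -0.52 against WT MI (limma adjusted p = 0.00116, 0.000549 and 0.0408 against OE sham and 6.74e-06, 0.000145 and 0.00506 against WT MI).

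The other groups were also set against WT sham; each of these comparisons shares the WT sham libraries with the OE MI one, so the counts stand side by side without a test. WT MI had 1281 genes higher (8.25%) and 1036 lower (6.67%), and OE sham 1016 higher (6.54%) and 1020 lower (6.57%). Of the collagens 11 were higher in OE MI, 19 in WT MI and 0 in OE sham, each against WT sham. Of the macrophage list the counts were 20 in OE MI, 36 in WT MI and 0 in OE sham. Genes of oxidative phosphorylation were lower in all 3, 66 in OE MI, 35 in WT MI and 38 in OE sham. Potassium channel genes were lower for 18 in OE MI, 6 in WT MI and 9 in OE sham.

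**Figure D5:**
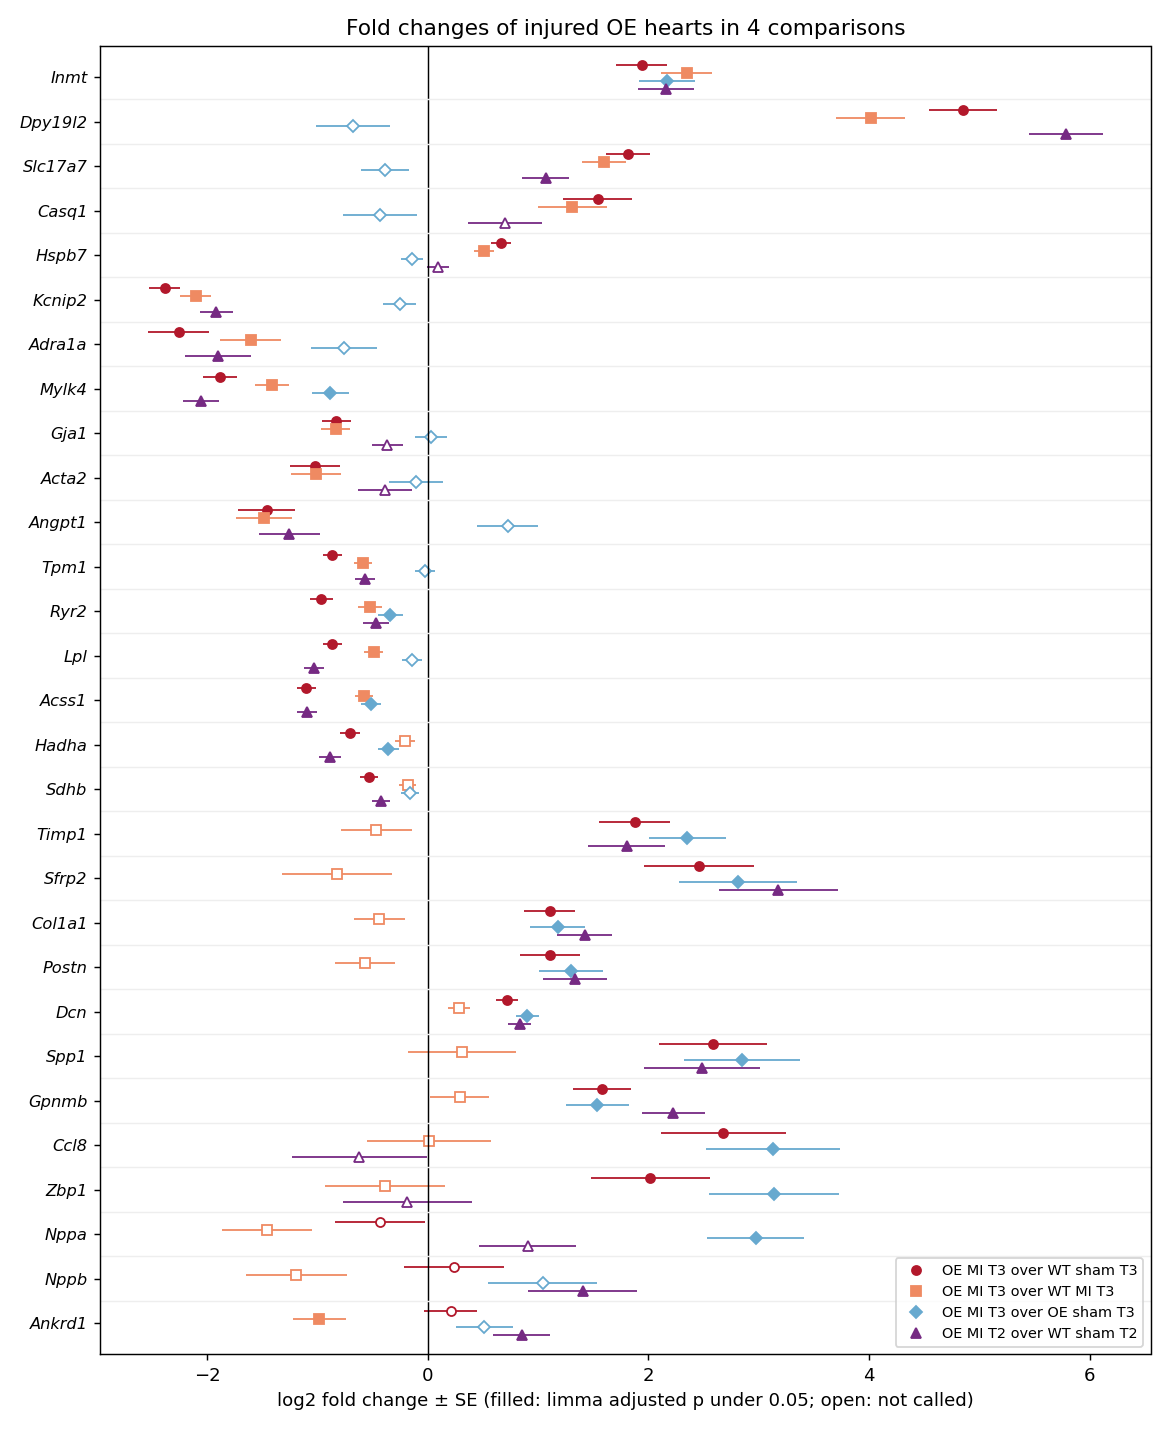
Log2 fold change with standard error (horizontal axis) of 29 genes in 4 comparisons of injured OE hearts; filled points have a limma adjusted p under 0.05. Inmt lies at 1.94, 2.35, 2.17 and 2.16 in the 4 comparisons, Kcnip2 at -0.25 and uncalled against OE sham, and Timp1, Col1a1, Postn and Dcn uncalled against WT MI.

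The same comparison 2 weeks after the overexpression used other hearts, with 3 OE MI and 4 WT sham libraries. There 1552 genes rose (9.99%) and 1800 fell (11.6%), 21.6% of genes tested. Called at both times in the same direction were 1389 genes, which is 54.5% of the calls at T3 and 41.4% of those at T2; 13 were called in opposite directions. Inmt was at 1.94 ± 0.23 at T3 and 2.16 ± 0.25 at T2, Kcnip2 at -2.38 ± 0.14 at T3 and -1.91 ± 0.15 at T2, and Timp1 at 1.88 ± 0.32 at T3 and 1.80 ± 0.35 at T2. Of the macrophage list 20 of 43 rose and none fell at T3, against 5 and 1 at T2, and of the interferon-stimulated list 10 of 36 rose and none fell at T3, against 0 and 1 at T2. These counts are not a test of the difference. A test of the difference between these distances, T3 minus T2, called 21 genes higher (0.135%) and 3 lower (0.0193%), 0.155% of genes tested, with 1904 at an unadjusted p under 0.05. None of the 43 general macrophage genes was among them, and 1 of 18 resident macrophage markers, Cbr2, and 1 interferon-stimulated gene, Ifi35, were (difference 0.95 ± 0.19 and 1.02 ± 0.22; limma adjusted p = 0.0237 and 0.0413); Cbr2 and Ifi35 are named after their values were seen. Vtn, the gene of the adhesion protein vitronectin, was called, with 0.68 ± 0.09 at T3 and -0.14 ± 0.10 at T2 (difference 0.81 ± 0.13; limma adjusted p = 0.0079), as was Tmem106a, with 0.77 ± 0.14 at T3 and -0.38 ± 0.15 at T2 (difference 1.16 ± 0.21; limma adjusted p = 0.00917).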

How the data were processed

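The values of 29 libraries of mouse heart at T2 and T3 came from 1 table deposited by the authors. Per the file headers, the deposited signal is a normalized read count per gene, the deposited log2 values are fold changes between groups, the deposited p-values are adjusted, the deposited score is the largest count, and the remaining deposited columns, of other kinds, hold the limits the authors set for calling a gene (adjusted p 0.05, fold 1.5, largest count 30). Cutadapt, STAR, HTSeq and DESeq2, with the build GRCm38, are named in the submitters' processing notes; the sources used here do not give versions, strandedness or settings, so antisense and overlapping genes may share reads. Per the labels' protocols, RNA was poly A selected.

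The table lists 19432 genes, 67 at 0 in all libraries. Divided by the value of 1 read, 100% of the values of each library came out whole within 0.1 reads, and these recovered reads entered only alternatives. Over the 12 pairs of libraries within OE MI and within WT sham at T3, chi-square divided by genes was at least 7.12, so none of these 8 libraries repeated another of its group.

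The test was limma 3.58.1 (trend, robust, two-sided) in R 4.3.3 on log2(normalized count + 1), fitting a group mean for all 8 groups of the 29 libraries, for genes of at least 10 in at least 3 libraries; a fold change on this scale understates the change of low genes. P-values were adjusted by Benjamini-Hochberg over all genes tested. Alternatives were TMM and library-total scaling, other pseudocounts and filters, fewer groups in the fit, edgeR 4.0.16, DESeq2 1.42.0, a replicate block and each library left out; library totals without mitochondrially encoded reads and the omission of OE MI replicates 1 and 2 were added after the data were seen. The limma fit was tested on simulated data.

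Named genes are fixed markers of the heart's cell types and states; the 12 largest fold changes each way among called genes with a mean of at least 100, no overlap and no predicted-gene symbol; up to 4 called members of each of 47 lists; and up to 5 each way called here and in a side comparison or in the difference between times. Members and lists were chosen with earlier results of these data known. Ppargc1a, Esrra, Kcnd2, Cacna1c, Pln, Casq2, Myl7, Myl4, Sln, Ifi35 and Cdkn1a were singled out after their values were seen. Some genes are not reported here. Positions are from GENCODE M21 (GRCm38), which held 19390 of the identifiers; promoter windows are from RefSeq (GRCm38.p6), at the listed start nearest that of the principal GENCODE transcript.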

Additional observations from a re-analysis of the deposited data

Results flagged for a closer look

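For the genes named by the rule, the 4 libraries of each group were examined for 1 library far from the other 3, in 420 groups. Chance alone sets such a library apart in about 1 in 20 groups, which is as many as the 21 seen. In OE MI the high library had 131 normalized counts for Abca12, 112 for Cep128, 177 for Mmp12 (replicate 1), 2507 for Arhgef17, 6019 for Serping1 and 51.9 for Dbh; the low library had 679.9 for Tgfbi and 257 for Cx3cl1 (replicate 4 for both). In WT sham the high library had 451 for Inmt, 50.3 for Timd4, 417 for Cep128, 18.8 for Kcnc4, 4139 for H2-D1, 207 for Bst2, 25.2 for Ccl8, 2.29 for Cxcl2, 82.3 for Ddc, 25.8 for Itgb7 and 160.1 for Gm15487, and the low library had 119 for Cd44 and 4778 for Canx. WT sham replicate 1 was the high library for Inmt, Timd4, H2-D1, Bst2, Ccl8, Cxcl2 and Gm15487.

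Some distances from WT sham differed between T3 and T2 by a test of the difference itself. The log2 difference, T3 minus T2, was 0.81 for Vtn, 7.67 for Gm6969, 8.08 for Gm15487, 1.16 for Tmem106a, 0.90 for Srp9, -0.56 for Tppp and -1.03 for Heatr5b (limma adjusted p = 0.0079, 0.00895, 0.00917, 0.00917, 0.0122, 0.0153 and 0.0334). Gm6969 and Gm15487 are predicted genes, whose reads may be shared with copies elsewhere. Gm6969 had 141, 144, 323 and 284 in OE MI at T3, against 12.6, 5.86, 14.9 and 5.11 in WT sham, and Gm15487 104, 91.7, 105 and 110.2 in OE MI, against 160.1, 3.52, 0.99 and 3.07 in WT sham. Their T3 log2 fold changes, at most 4.96 under any alternative, were smaller than their T3 minus T2 differences. At T2 both therefore lay the other way, lower in OE MI than in WT sham. Heatr5b had 552, 613, 459 and 491 in OE MI, against 1189, 1153, 1199 and 1261 in WT sham.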

How the results depend on the processing

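Scaling moved the counts of the main comparison most. Library totals called 6805 genes higher and 416 lower, against 1193 and 1357 as reported, and totals without mitochondrially encoded reads 3499 and 693. TMM scaling gave 1247 and 1280, edgeR 1303 and 1282, DESeq2 1331 and 1434, and only the 8 libraries compared 837 and 1193. Leaving out 1 library gave 702 to 1409 higher and 936 to 1525 lower; without OE MI replicates 1 and 2 there were 292 and 479, with fewer samples by construction. With the replicate number as a block, 1162 genes were higher and 1306 lower, but same-numbered libraries did not deviate together (correlations of 0.01 to 0.07) and share only a number. With only the groups compared in the fit, OE MI against WT MI called 146 genes in place of 510, and OE MI against OE sham 1839 in place of 2963. DESeq2 called 96 genes for the difference between T3 and T2, in place of 24. Of 202 named genes called, 174 stayed called with library totals, 171 without OE MI replicate 1 and 121 without replicates 1 and 2. Called genes that turned round with library totals were Des (0.043), Nr1d2 (0.043), Rcan2 (0.0054) and Sptb (0.020). Uncalled genes also changed sign: Myh7 with edgeR (-0.20), DESeq2 (-0.21) and single libraries left out (-0.29 to 0.52), Mki67 with single libraries left out (-0.13 without OE MI replicate 1, up to 0.68) and without replicates 1 and 2 (-0.58), and, without replicates 1 and 2, Nppa (0.13) and Ankrd1 (-0.13). The cause of these changes was not tested. Depth limits the genes of a few counts.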

Other observations

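Of 50 endothelial genes 2 rose and 6 fell, beside 7.68% and 8.74% of all genes, and 3 fell without WT sham replicate 4 and 1 without OE MI replicates 1 and 2; Cdh5, the endothelial cadherin, was at -0.16 ± 0.08 (limma adjusted p = 0.178). Angpt1, the ligand of the endothelial receptor TIE2, had 343, 319, 343 and 366 in OE MI, against 533, 1235, 1036 and 1158 in WT sham (-1.46 ± 0.26; limma adjusted p = 0.000452). All OE MI values lay below all WT sham values. Among 20 mural cell markers 3 rose and 5 fell, the pericyte gene Rgs5 with -0.39 ± 0.13 and Pdgfrb with 0.32 ± 0.07 (limma adjusted p = 0.0434 and 0.00204), and Myh11 of smooth muscle was at -0.61 ± 0.22 (limma adjusted p = 0.0555); 2 fell without OE MI replicate 1, and 3 without OE MI replicate 2 or 4 or WT sham replicate 1, 2 or 3. With library totals 15 endothelial genes rose and 1 fell, and 6 mural genes rose and 2 fell. The mural counts were 2 higher and 1 lower without OE MI replicates 1 and 2.

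Of 15 Schwann cell and neural markers 1 rose and 4 fell, against 2 lower without OE MI replicates 1 and 2, none higher without OE MI replicate 1 or WT sham replicate 4, 2 higher without OE MI replicate 3, and 3 higher and 3 lower with library totals. Dbh, which makes noradrenaline in sympathetic neurons, had 51.9, 30.8, 33.7 and 30.9 in OE MI, against 85.8, 71.5, 101 and 81.7 in WT sham (-1.21 ± 0.28; limma adjusted p = 0.00358), and Ddc, of the same pathway, 13.7, 19.7, 13.7 and 27.6 in OE MI, against 51.5, 50.4, 82.3 and 54.1 in WT sham (-1.65 ± 0.41; limma adjusted p = 0.00669). Neither overlapped between the groups, but Ddc was not called without OE MI replicates 1 and 2 (limma adjusted p = 0.0877). Of 20 clock genes 5 fell and 1 rose: Arntl, the BMAL1 gene, had 58.3, 39.4, 75.6 and 55.1 in OE MI, against 29.7, 38.7, 26.8 and 27.6 in WT sham (0.85 ± 0.21), and Tef, a clock output factor, fell (-0.36 ± 0.06; limma adjusted p = 0.0064 and 0.000159), the call of Tef ending with library totals (limma adjusted p = 0.141). With library totals 0 clock genes fell and 4 rose, and 3 fell without OE MI replicate 2. Leaving out OE MI replicates 1 and 2, 3 fell and 1 rose. The sources used here do not give the hour at which each heart was taken.

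The cell cycle list had a median log2 fold change of 0.43, and its calls stand beside 7.68% higher and 8.74% lower among all genes. Of 46 cell cycle genes 4 rose and 1 fell, Mki67 having 275, 138, 56.5 and 50.7 in OE MI, against 66.3, 64.5, 125 and 77.7 in WT sham (0.35 ± 0.47; limma adjusted p = 0.678), with OE MI replicate 1 high. Cenpa, the centromeric histone, rose by 0.60 ± 0.10 and Cenpf, of the mitotic kinetochore, fell (-1.40 ± 0.29; limma adjusted p = 0.000255 and 0.0022). The list's higher count was 1 without OE MI replicate 1, replicate 2 or both, and 10 without replicate 4. It was 2 without WT sham replicate 1, 3 or 4, and 19 with library totals. Cdkn1a, the p21 cell cycle inhibitor, had 369.6, 428, 405 and 480.4 in OE MI, against 274, 242, 243 and 325 in WT sham (0.64 ± 0.22; limma adjusted p = 0.0507); the groups did not overlap but it was not called.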
